A study of Homo sapiens with 6 samples.

Results

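The E2F transcription factors E2F1 to E2F8 and their DP partners TFDP1 and TFDP2 were followed after knockdown of C1GALT1 in AGS, a line of human gastric adenocarcinoma cells. The 10 genes were chosen by name, and probes were assigned to them through the RefSeq accession that the array gives for each probe. They were read by 15 of the 58201 gene probes on the array, and they are 10 of the 22439 genes with a symbol there. RNA was taken 48 h after transfection with a nontargeting siRNA (si-Control, 3 samples) or with si-C1GALT1-3, an siRNA against C1GALT1 (3 samples). Every sample had a one-colour Agilent array to itself. All samples were AGS cells grown in medium with serum, and both groups were transfected. Only 1 siRNA against C1GALT1 was used on the arrays, so an effect of its sequence and an effect of C1GALT1 loss cannot be told apart. The sources do not say whether the 3 samples of a group came from separate cultures, so the p-values measure the spread between these samples, which may be technical.

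E2F proteins bind DNA in the promoters of genes needed for DNA replication and cell division. E2F1, E2F2 and E2F3 are known as activators that are held inactive by the retinoblastoma protein RB1 until cyclin-dependent kinases phosphorylate it late in G1. E2F4 and E2F5 mostly repress with the pocket proteins RBL1 and RBL2 in resting and early G1 cells, E2F6 represses with polycomb-group proteins and without pocket proteins, and the atypical members E2F7 and E2F8 repress without a DP partner. The other E2F proteins bind DNA as heterodimers with the products of TFDP1 or TFDP2. In gastric epithelium and its tumors, as in other tissues, this family is best known for control of the entry into S phase.

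Several E2F genes are known to carry E2F sites in their own promoters, so the promoter sequences of the activators are shown first. Promoter windows of 300 bases, from 250 bases before to 50 bases after the start of a transcript, came from RefSeq (GRCh38.p14), and 8 of the 10 genes were matched, with E2F5 and E2F8 not matched. The letters searched on both strands were TTTCCCGC, TTTGGCGC, TTTGCCGC and TTTCGCGC, 4 forms of the E2F consensus that do not contain one another. Among the 35116 promoter windows of the table, 1164 (3.31%) held at least 1 of the forms. The forms were found in 4 of the 8 matched genes, against 3.99% of all genes with a window. They were found in 4 of the 11 windows of the matched genes (36.4%). They lay in E2F1 at chr20:33686336-33686635 on the minus strand, in E2F2 at chr1:23531184-23531483 on the minus strand and in E2F3 at chr6:20401629-20401928 on the plus strand. Each sequence is written 5′ to 3′ in the direction of its gene, with the matched letters in capitals.
E2F1: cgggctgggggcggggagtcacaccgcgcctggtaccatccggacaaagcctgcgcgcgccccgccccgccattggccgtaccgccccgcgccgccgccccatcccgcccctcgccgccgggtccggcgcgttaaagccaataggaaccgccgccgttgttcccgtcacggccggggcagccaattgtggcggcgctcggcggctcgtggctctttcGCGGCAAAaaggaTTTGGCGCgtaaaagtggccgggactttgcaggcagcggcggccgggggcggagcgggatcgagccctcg
E2F2: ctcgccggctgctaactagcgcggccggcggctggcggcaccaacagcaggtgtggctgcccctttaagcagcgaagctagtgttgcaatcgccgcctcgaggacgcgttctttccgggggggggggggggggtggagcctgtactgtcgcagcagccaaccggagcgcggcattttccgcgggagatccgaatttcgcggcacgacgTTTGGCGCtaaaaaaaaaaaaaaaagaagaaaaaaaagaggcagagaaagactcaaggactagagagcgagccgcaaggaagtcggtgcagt
E2F3: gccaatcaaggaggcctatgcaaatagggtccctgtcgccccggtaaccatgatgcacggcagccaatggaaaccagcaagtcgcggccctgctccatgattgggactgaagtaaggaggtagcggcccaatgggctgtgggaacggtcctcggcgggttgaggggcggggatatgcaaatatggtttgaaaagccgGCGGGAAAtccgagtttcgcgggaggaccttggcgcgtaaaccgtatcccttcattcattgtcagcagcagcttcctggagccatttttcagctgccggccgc
E2F1 held 2 matches, 33 and 20 bases before the start. E2F2 held 1 match 42 bases before the start. E2F3 held 1 match 53 bases before the start of this transcript, and its second window held none. TFDP1 (chr13:113584503-113584802, plus strand) held 1 match 120 bases before the start, and E2F4, E2F6, E2F7 and the 3 windows of TFDP2 held none. A match describes letters in this window and is not a measured site.

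The values are log2 intensities of the processed signal after quantile normalization over the 6 arrays, and a log2 fold change is si-C1GALT1-3 minus si-Control. On si-Control replicate 2 a rectangle of the array was dim. Inside it the 9712 gene spots (15.9%) had a median of -2.19 on the log2 scale relative to the other si-Control arrays, against -0.06 outside it. The spots inside were set to missing for that array, so for E2F3, E2F4, E2F5 and E2F8 the control group has 2 arrays. The share of gene spots well above background ran from 66.2% to 72.7% over the arrays, none was saturated, and the number of arrays limits the precision. C1GALT1, which makes the core 1 O-glycan, had log2 intensities of 12.22, 13.03 and 12.62 in si-Control and 11.76, 11.98 and 11.13 in si-C1GALT1-3. The groups did not overlap, and the log2 fold change was -1.0 (SE 0.31, limma, Benjamini-Hochberg adjusted p = 0.265). The epithelial markers KRT8, KRT18, KRT19, EPCAM and CLDN4 (5 of 5) exceeded the background well on every array. Their summed level was 18.71 to 19.33 (log2) in si-Control and 18.38 to 19.18 in si-C1GALT1-3. On all arrays used, 2 of 5 fibroblast, 3 of 4 leukocyte and 2 of 4 endothelial markers measured were well above background. The groups did not overlap for the fibroblast marker PDGFRB and the endothelial marker VWF. Their log2 fold changes were -0.81 (SE 0.19) and -1.03 (SE 0.29), each with 2 control arrays. The other markers of these lists overlapped between the groups. The part of all these markers in the results was not tested.

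Within the family E2F5 was higher after knockdown by 2.35-fold, and no other member met the threshold of the study, an unadjusted limma p under 0.01 with a change of at least 2-fold. Of the 22438 genes tested, 2.08% met it as higher and 1.33% as lower, against 1 and 0 of the 10 members. At an unadjusted p under 0.05, E2F5 and E2F3 were higher (2 of 10, against 9.49% of all genes) and E2F2 was lower (1 of 10, against 7.14%). The 2 groups did not overlap for the same 3 genes, 2 higher and 1 lower, and among all genes 14.0% did not overlap as higher and 11.2% as lower. The median log2 fold change of the family was 0.12, with 6 members above 0 and 4 below, against a median of 0.02 over all genes. It was -0.09 without si-Control replicate 1, with 5 above and 5 below, and 0.28 without si-Control replicate 3, with 7 above and 3 below. After Benjamini-Hochberg adjustment over all 58195 probes tested, 0 members had an adjusted limma p under 0.05. With the methods' t-test the count was also 0, and 2 members had an unadjusted p under 0.05. All 10 members were well above background on every array used.

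**Figure D1:**
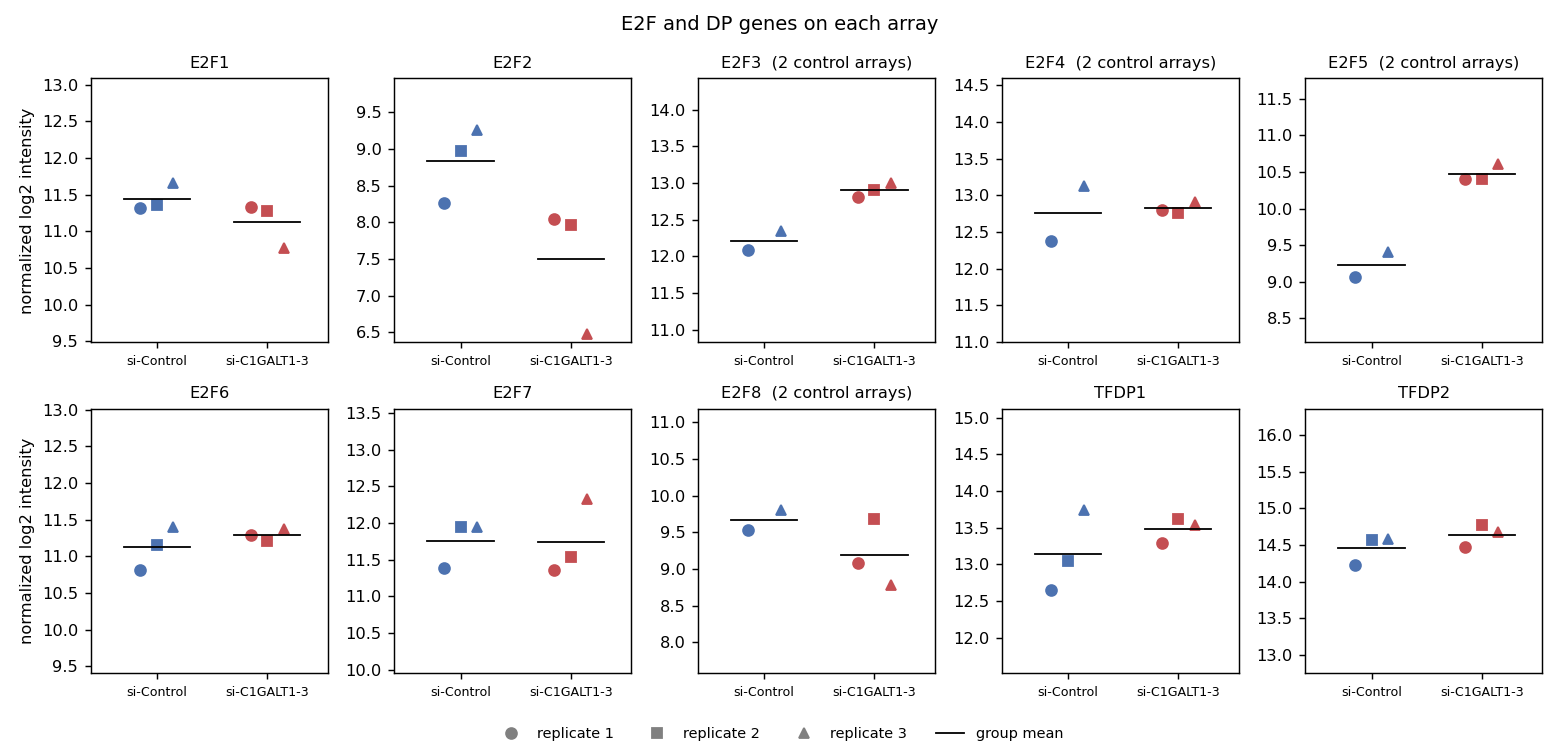
Normalized log2 intensity (vertical axis, 1 panel per gene) on each si-Control and si-C1GALT1-3 array, with the marker shape giving the replicate and the line the group mean. The 3 si-C1GALT1-3 values of E2F5 and of E2F3 lie above all their si-Control values, those of E2F2 lie below, and the other 7 members overlap.

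Among the activators, the 3 genes did not share a direction. E2F1, the activator most often tied to S phase entry and also to apoptosis, had log2 intensities of 11.31, 11.36 and 11.66 in si-Control and 11.33, 11.27 and 10.77 in si-C1GALT1-3. The groups overlapped, and the arrays of si-C1GALT1-3 replicates 2 and 3 lay below all control arrays. This gave a log2 fold change of -0.32 (SE 0.21, limma adjusted p = 0.564), and of -0.14 without si-C1GALT1-3 replicate 3.

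The probe of E2F1 is printed in 10 spots per array, which gives a measure of the error within an array. The spots of si-C1GALT1-3 replicate 3 had a mean of 10.77 ± 0.09 (SD, n = 10 spots). Those of si-C1GALT1-3 replicates 1 and 2 had means of 11.33 ± 0.12 and 11.27 ± 0.08 (n = 10 spots each). The low value of replicate 3 was therefore shared by all its spots, the highest of which was 10.92. In si-Control the means were 11.31 ± 0.14 (n = 10 spots), 11.36 ± 0.16 (n = 9) and 11.66 ± 0.09 (n = 9) for replicates 1, 2 and 3. Of the 10 spots, 1 lay in the dim rectangle of si-Control replicate 2, where its log2 signal before normalization was 10.69, the lowest of the 10, against a highest of 11.49.

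**Figure D2:**
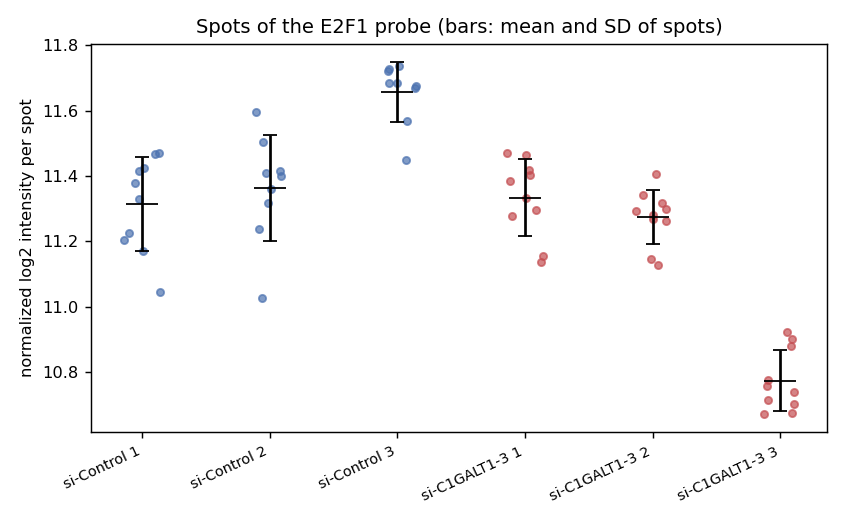
Normalized log2 intensity (vertical axis) of each E2F1 spot on the 6 arrays, with bars for the mean and SD of the spots of an array. The 10 spots of si-C1GALT1-3 replicate 3 lie between 10.67 and 10.92, below every spot of the other 5 arrays.

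E2F2, a second activator, had the lowest fold change of the family. Its log2 intensities were 8.27, 8.97 and 9.26 in si-Control and 8.04, 7.96 and 6.48 in si-C1GALT1-3. All si-C1GALT1-3 arrays lay below all control arrays, and the array of replicate 3 lay far below the other 2 of its group. The mean was 2.53-fold lower, a log2 fold change of -1.34 (SE 0.51, limma adjusted p = 0.335). Leaving out si-C1GALT1-3 replicate 3 moved it to -0.83. The unadjusted limma p of E2F2 was under 0.05 with all arrays, and over 0.05 without that array, without si-Control replicate 2 or 3, with no normalization, with the series table, with the replicate as a block and by the methods' t-test.

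E2F3, the activator most needed for proliferation in many cell types, lay higher after knockdown by both of its probes. The brighter probe (A_23_P385034) had log2 intensities of 12.08 and 12.34 in si-Control replicates 1 and 3, and 12.80, 12.91 and 13.00 in si-C1GALT1-3. The 3 knockdown values were close together and above both control values. The mean was 1.61-fold higher, a log2 fold change of 0.69 (SE 0.17, limma adjusted p = 0.220) that falls short of 2-fold. The other probe (A_33_P3418516) lies outside the rectangle and had values of 10.72, 11.38 and 11.40 against 11.70, 11.85 and 11.99. This probe, with all 6 arrays, gave 0.68 (SE 0.23, limma adjusted p = 0.295). Without si-Control replicate 1, which leaves 1 control array, the brighter probe had a log2 fold change of 0.55. The unadjusted limma p of the brighter probe was over 0.05 with the 75th percentile or no normalization and with the rectangle kept. In that last setting it gave 3.16 (SE 2.09), where its signal on si-Control replicate 2 was 4.19 (log2, before normalization).

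Of the pocket-protein repressors, E2F5 rose and E2F4 overlapped between the groups. E2F5 (probe A_23_P31721) had log2 intensities of 9.06 and 9.41 in si-Control replicates 1 and 3, and 10.40, 10.41 and 10.60 in si-C1GALT1-3. The control mean was 9.24 ± 0.24 (SD, n = 2) and the knockdown mean 10.47 ± 0.12 (SD, n = 3), with no overlap. On the log2 scale the rise was 1.23 (SE 0.19, limma adjusted p = 0.124). E2F5 met the threshold in each alternative setting that kept both control arrays, and its adjusted p was not under 0.05 in these. Over all 18 settings its log2 fold changes lay between 1.07 and 1.48. Leaving out si-Control replicate 1 or 3 left 1 control array, and leaving out replicate 2 removed no value of this gene. The gene has 1 probe, which lies in the rectangle, and with the masked array kept the log2 fold change was 1.48. E2F4, the most abundant E2F protein in many resting cells, had values of 12.38 and 13.13 in si-Control replicates 1 and 3, and 12.80, 12.76 and 12.91 in si-C1GALT1-3. The 3 knockdown arrays lay between the control arrays. E2F4 thus had a log2 fold change of 0.07 (SE 0.27, limma adjusted p = 0.955). It was -0.30 without si-Control replicate 1 and 0.44 without si-Control replicate 3, each with 1 control array left.

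E2F6, the pocket-protein-independent repressor, was measured by 3 probes. Its brightest probe had log2 intensities of 10.81, 11.16 and 11.40 in si-Control and 11.30, 11.21 and 11.37 in si-C1GALT1-3. The knockdown values lay within the range of the control values. The log2 fold change was 0.17 (SE 0.19, limma adjusted p = 0.744), and the other 2 probes gave 0.24 (SE 0.19) and 0.09 (SE 0.18). It was 0.015 without si-Control replicate 1 and 0.31 without si-Control replicate 3.

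The atypical repressors overlapped between the groups. E2F7, which limits E2F1 activity in S phase, had log2 intensities of 11.39, 11.94 and 11.95 in si-Control and 11.36, 11.54 and 12.33 in si-C1GALT1-3. The knockdown array of replicate 3 was here the highest of the 6, where for E2F1 and E2F2 it was the lowest. The means gave a log2 fold change of -0.02 (SE 0.31, limma adjusted p = 0.996), and the other probe, masked on si-Control replicate 2, gave 0.18 (SE 0.63). The median over both probes gave -0.59 (SE 0.71), a value in which si-Control replicate 2 is read from the brighter probe alone. Leaving out 1 array moved E2F7 to between -0.31 and 0.18. E2F8, its closest relative, had values of 9.53 and 9.80 in si-Control replicates 1 and 3, and 9.09, 9.68 and 8.79 in si-C1GALT1-3. The knockdown arrays of replicates 1 and 3 lay below both control arrays, and that of replicate 2 lay between them. For E2F8 the log2 fold change was -0.48 (SE 0.32, limma adjusted p = 0.575). It was -0.73 with the replicate block, -0.73 without si-C1GALT1-3 replicate 2, where the unadjusted p was under 0.05, and -0.28 without si-C1GALT1-3 replicate 3. With the rectangle kept it was 1.63, with an E2F8 signal on si-Control replicate 2 of 3.11 (log2, before normalization).

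The DP partners overlapped between the groups. TFDP1, which encodes DP1, had log2 intensities of 12.65, 13.05 and 13.74 in si-Control and 13.29, 13.62 and 13.54 in si-C1GALT1-3. The control arrays spread over a wider range than the knockdown arrays, which lay inside it. The log2 fold change was 0.34 (SE 0.30, limma adjusted p = 0.679), with 0.64, 0.58 and -0.20 on slides 1, 2 and 3. It was 0.63 without si-Control replicate 3, where the unadjusted p was under 0.05, and 0.09 without si-Control replicate 1. The second TFDP1 probe had values of 10.81, 10.43 and 12.21 against 11.79, 11.74 and 12.11, with a log2 fold change of 0.73 (SE 0.48, limma adjusted p = 0.561). Its spot lies outside the dim rectangle but within 10 columns of it, and si-Control replicate 2 gave the lowest of these values. TFDP2, which encodes DP2, had values of 14.23, 14.57 and 14.58 in si-Control and 14.47, 14.78 and 14.68 in si-C1GALT1-3. TFDP2 had a log2 fold change of 0.18 (SE 0.17, limma adjusted p = 0.687), with the lowest knockdown array inside the control range. It was 0.068 with the 75th percentile normalization, and between 0.065 (without si-Control replicate 1) and 0.27 (without si-C1GALT1-3 replicate 1) on leaving out 1 array.

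**Figure D3:**
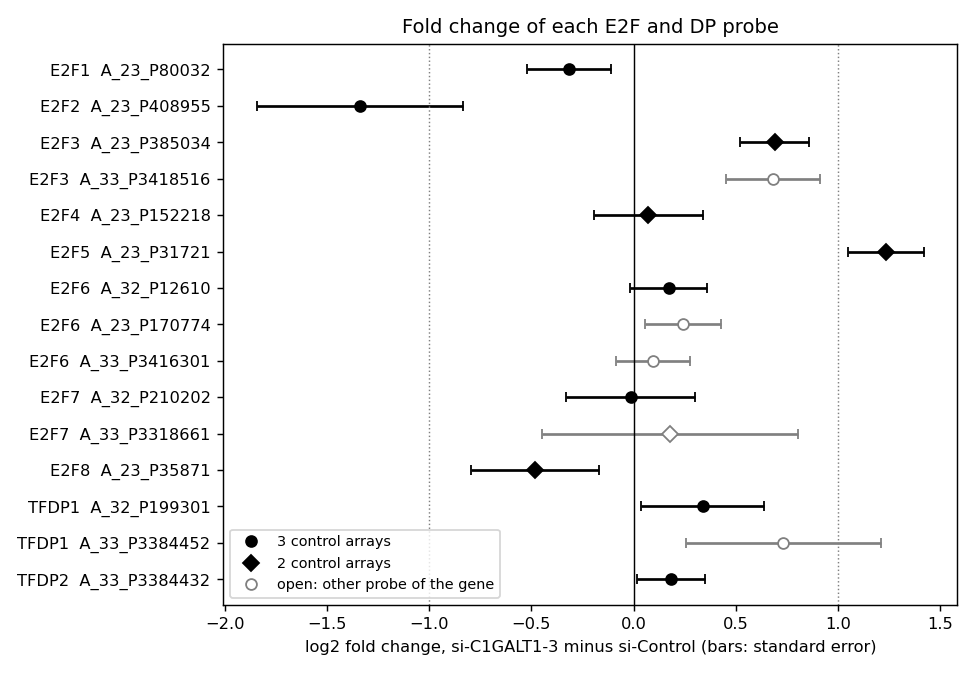
Log2 fold change (horizontal axis, si-C1GALT1-3 minus si-Control) of the 15 probes, with bars for the standard error, filled markers for the probe used for a gene, open markers for its other probes and diamonds where 2 control arrays were used. E2F5 lies at 1.23 and E2F2 at -1.34, beyond the dotted 2-fold lines, and both E2F3 probes lie near 0.7.

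Arrays with the same replicate number shared a slide, with si-Control always in column 1 and si-C1GALT1-3 in column 2, so position and treatment cannot be told apart. Within slides, E2F5 was higher by 1.34 (slide 1) and 1.20 (slide 3), and E2F3 by 0.72 and 0.65, on the log2 scale. The other E2F3 probe, which could be read on all slides, was higher by 0.99, 0.46 and 0.60 on slides 1, 2 and 3. E2F2 differed by -0.23, -1.01 and -2.79 on slides 1, 2 and 3. E2F1 differed by 0.02, -0.09 and -0.88 on the same slides. The size of the E2F2 and E2F1 differences thus varied between slides, with the most negative values on slide 3. C1GALT1 itself differed by -0.47, -1.05 and -1.49 on slides 1, 2 and 3, and a link between these differences was not tested. Over the members read, the median difference was 0.33 on slide 1, -0.02 on slide 2 and -0.11 on slide 3. Lower members were 3 of 10, 3 of 6 and 6 of 10 on these slides, where slide 2 lacks E2F3, E2F4, E2F5 and E2F8. Among all genes, 10128 of 22412, 8974 of 18864 and 11163 of 22411 were lower. TFDP2 was higher on each slide, by 0.24, 0.21 and 0.10.

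**Figure D4:**
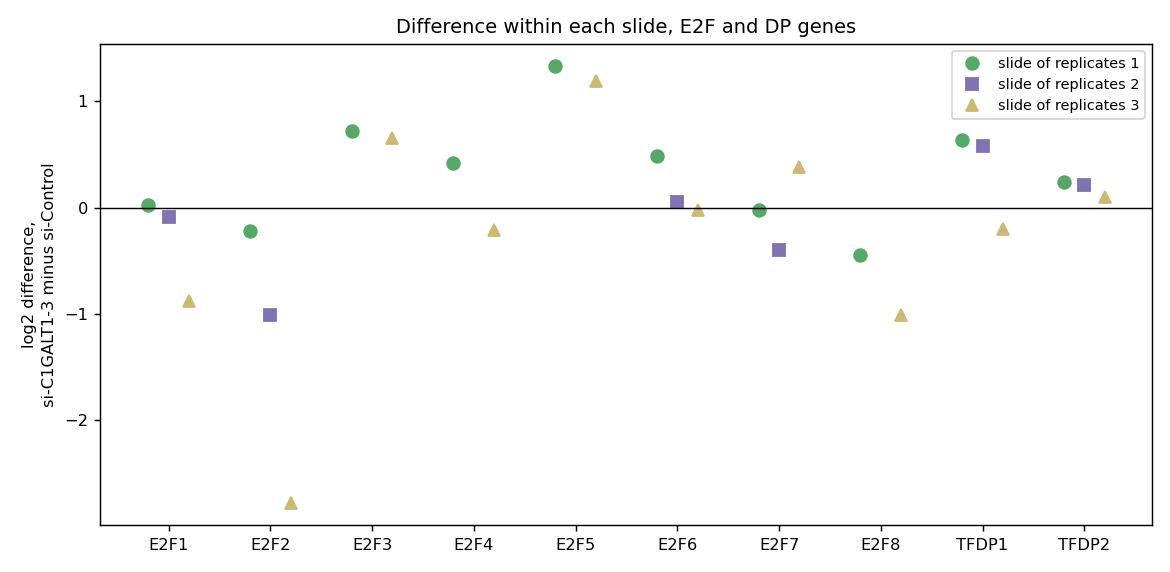
Difference in log2 intensity (vertical axis) between the si-C1GALT1-3 and si-Control arrays of a slide for the brightest probe of each gene, with 1 marker per slide and no slide 2 value where the control spot was masked. E2F2 spreads from -0.23 to -2.79 between slides, whereas TFDP2 lies between 0.10 and 0.24.

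By the brightest probe of each gene, E2F2 was the member with the smallest p among those measured on all 6 arrays, and the genes whose pattern was most like it were sought by Pearson correlation over the 6 arrays among 14025 genes. The 3 closest were MCM6 (r = 0.996), a subunit of the replicative helicase, RAD54L (r = 0.988), a DNA repair translocase, and EEF1AKMT1 (r = 0.987), a lysine methyltransferase. Their log2 fold changes were -0.77, -1.06 and -0.27. These r values describe 6 points that share the arrays and the 2 groups.

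The partners of the family were taken from lists of named genes, each gene read from its brightest probe. Of the 9 genes of the RB family, the MuvB core and MYBL2, 0 were called higher and 1 lower, against 2.08% and 1.33% of all genes. Their median log2 fold change was 0.03. It was -0.08 with normexp background correction, 0.17 with no normalization and between -0.03 and 0.07 on leaving out 1 array. LIN9, a MuvB subunit, fell from 10.99, 11.15 and 11.15 in si-Control to 10.08, 10.22 and 9.64 in si-C1GALT1-3, with no overlap. This was a log2 fold change of -1.11 (SE 0.19, limma adjusted p = 0.118). LIN9 was not called by the median over its probes (-0.93), without si-C1GALT1-3 replicate 3 (-0.94) or with no normalization (-0.99). RBL1, the pocket protein p107, had -0.87 (SE 0.22, limma adjusted p = 0.206), under the 2-fold threshold. RB1 had a log2 fold change of 0.56 (SE 0.21, limma adjusted p = 0.342). LIN52, another MuvB subunit, had 0.91 (SE 0.31, limma adjusted p = 0.318), and 0.52 with normexp background correction, 1.69 with the rectangle kept and 0.63 without si-Control replicate 3. On 1 of the 2 control arrays used for LIN52 the spot passed the background test of the scanner software. At an unadjusted limma p under 0.05, 2 of the 9 genes were higher and 4 lower, against 9.49% and 7.14% of all genes.

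Of the 15 G1 cyclins, kinases and CDK inhibitors that act upstream of RB1, 1 was called higher and 1 lower, against 2.08% and 1.33% of all genes. The median log2 fold change was 0.06, and leaving out 1 array moved it to between -0.08 and 0.07. At an unadjusted limma p under 0.05, 2 of the 15 genes were higher and 1 lower, against 9.49% and 7.14%. CDK6, a kinase that phosphorylates RB1 with D-type cyclins, rose from 12.17, 12.22 and 12.51 in si-Control to 13.74, 13.82 and 14.05 in si-C1GALT1-3. On the log2 scale this was 1.57 (SE 0.16, limma adjusted p = 0.0688), and the slides gave 1.57, 1.60 and 1.54. CCND1, cyclin D1, fell from 12.91, 13.30 and 14.24 to 11.31, 11.54 and 12.44. Its log2 fold change was -1.72 (SE 0.45, limma adjusted p = 0.213). CDK6 met the threshold in each setting, whereas CCND1 lost it in 7 of 18, among them the methods' t-test. CCNE2, cyclin E2 and itself a target of E2F, had 0.98 (SE 0.30, limma adjusted p = 0.264), just under 2-fold. No array had CCND2 well above background.

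The targets of E2F at the G1/S transition lay mostly lower after knockdown. Of the 49 genes measured of 50 listed, 46 (93.9%) had a negative log2 fold change (CCNE1, CCNE2 and MYBL2 also belong to the lists above), against 47.6% of all genes, and the median was -0.63 against 0.02. Without si-Control replicate 3, 38 of the 49 were lower with a median of -0.39, and without si-Control replicate 1, 48 were lower with a median of -0.89. The threshold was met by 0 as higher and 3 as lower, against 2.08% and 1.33% of all genes. At an unadjusted limma p under 0.05 there were 1 higher and 21 lower, against 9.49% and 7.14%. The groups did not overlap for 1 gene as higher and 23 as lower, against 14.0% and 11.2%. DTL, a substrate receptor of a ubiquitin ligase in S phase, fell from 9.05, 9.14 and 9.57 in si-Control to 8.39, 8.23 and 7.57 in si-C1GALT1-3. Its log2 fold change was -1.19 (SE 0.27, limma adjusted p = 0.175). CDC45, a part of the replicative helicase, had -1.12 (SE 0.27, limma adjusted p = 0.186). MCM5, a helicase subunit masked on si-Control replicate 2, had -1.05 (SE 0.18, limma adjusted p = 0.141), and was not called by the median over its probes with the masked spot left out (-0.63). In the limma fit that blocks on the replicate, 0 of the 49 met the threshold. The log2 fold changes there were -1.19 for DTL (adjusted p = 0.246), -1.12 for CDC45 (adjusted p = 0.251) and -1.06 for MCM5 (adjusted p = 0.245), each with an unadjusted p between 0.01 and 0.05. The median of the list was -0.66 in that fit, with 46 of 49 lower. Without si-C1GALT1-3 replicate 2 or replicate 3 the count was also 0. Without si-Control replicate 1 it was 8, without si-C1GALT1-3 replicate 1 it was 5, and without si-Control replicate 2 it was 1, all of them lower. Without si-Control replicate 3 it was 1, and this was CCNE2 as higher, with 0 lower.

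The target genes also varied between slides. Their median difference was -0.06 on slide 1, -0.57 on slide 2 and -1.31 on slide 3. On slide 1, 26 of 49 genes were lower, on slide 2, 37 of 40, and on slide 3, 48 of 49. Over all genes, 10128 of 22412, 8974 of 18864 and 11163 of 22411 were lower on slides 1, 2 and 3. Since RNA came from whole cultures, fewer cells in S phase and less of these RNAs per cell cannot be told apart. The paper reports arrest in G1 for AGS cells given this siRNA, by flow cytometry of DNA content. The part of such an arrest in these RNA values was not tested. The E2F letters given above lay in 23 of the 42 target genes with a promoter window. Among all genes with a window they lay in 1090 of 27305 (3.99%). All 22 measured targets with a match were lower, at a median of -0.56 on the log2 scale, as were 17 of the 19 without a match, at a median of -0.75.

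Of the 10 genes linked to apoptosis through E2F1, 0 were called higher and 1 lower, against 2.08% and 1.33% of all genes. At an unadjusted limma p under 0.05, 1 was higher and 1 lower, against 9.49% and 7.14%. The groups did not overlap for 2 genes as higher and 1 as lower, against 14.0% and 11.2%. In this list 8 of 10 had a negative log2 fold change, against 47.6% of all genes. With normexp or without si-Control replicate 1, 6 of 10 were negative. The median was -0.33 against 0.02 over all genes. Leaving out 1 array moved this median to between -0.35 and -0.14, the value nearest 0 being that without si-C1GALT1-3 replicate 3, and it was -0.15 without si-Control replicate 1. BCL2L11, the BH3-only protein BIM, had the highest log2 fold change of the list, 0.62 (SE 0.19, limma adjusted p = 0.255), and 0.36 by the median over its probes. Of the 10 subunits of the E2F6 polycomb complex 0 were called by limma in either direction, 0 had an unadjusted p under 0.05 (against 9.49% higher and 7.14% lower among all genes) and 0 were called by the methods' t-test, with a median of 0.15. The groups did not overlap for 2 of them as higher and 1 as lower, against 14.0% and 11.2%. Their values ran from -0.31 (SE 0.17) for PCGF6 to 0.94 (SE 0.43) for MAX, the MYC partner that also joins this complex. PCGF6, masked on si-Control replicate 2, moved to between -0.46 and -0.16 on leaving out 1 array. MAX had an unadjusted p under 0.05 with no normalization, with normexp, with dim probes left out, by the median over its probes, and on leaving out si-Control replicate 3 or the array of si-C1GALT1-3 replicate 2. Leaving out 1 array moved MAX to between 0.61 and 1.31.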

How the data were processed

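The authors deposited, per array, the fluorescence intensity of 62976 spots as written by Agilent Feature Extraction 10.5.1.1 (submitters' processing notes), background-subtracted and detrended within the array and not normalized between arrays. A series table of background-subtracted intensity was used as an alternative. Quantile normalization and limma follow the study's methods.

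Control spots (2075) were left out, and outlier spots (100 to 424 per array) and the dim rectangle of si-Control replicate 2 were set to missing. The log2 processed signals were quantile normalized, spots of a probe averaged, and groups compared with limma 3.58.1 (lmFit and eBayes, two-sided) in R 4.3.3. P-values were adjusted by Benjamini-Hochberg over all 58195 probes tested. No filter on dim probes was applied. Genes were named through RefSeq accessions (31104 of 58201 probes had a symbol), and the brightest probe by mean log2 signal stood for a gene with several. An exact permutation test of 3 against 3 arrays cannot go below 0.1, so none was used. The members and lists were chosen with earlier results of these data known. Named genes are the members, C1GALT1 and, per list, the called genes and the largest rise and fall. RBL1, RB1, CCND2, PDGFRB, VWF and the epithelial markers were added after their values were seen. A called gene of the apoptosis list is not reported here. Promoters are of GRCh38.p14, while the array files name another build.

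The same replicate number is the same slide in the scanner headers. Deviations from the group means correlated at 0.198, 0.215 and 0.329 between arrays of the same number, and at -0.215 to 0.0103 between others. Numbers were therefore taken as pairs for the within-slide differences. The main limma fit compared the groups without these pairs, and the replicate block was the alternative that used them. The fit was tested on simulated data. Alternatives were other normalizations, normexp background correction (offset 50, on the median spot signal), leaving out dim probes, the replicate block, a trend and robust prior, the methods' t-test, keeping outliers or the rectangle, the series table, the median over probes, leaving out each array, and, chosen after seeing the data, a rectangle widened by 10 lines and columns on each side.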

Additional observations from a re-analysis of the deposited data

How the results depend on the processing

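E2F5 stayed the 1 member called in each alternative that kept both of its control arrays. Over 18 alternatives the log2 fold changes of 23 genes kept their direction and their side of the threshold in 365 of 414 comparisons. Of the rest, 35 were no longer past it, 2 were newly past it and 12 were of opposite sign. These counts include fits with 1 control array, for genes masked on si-Control replicate 2. Opposite signs came in E2F7 at 0.11 (no normalization), 0.036 (normexp), 0.019 (series table) and 0.0018 (rectangle widened), in E2F8 at 1.63, MCM5 at 0.012 and PCGF6 at 1.90 (rectangle kept), and on leaving out 1 array in E2F4 (-0.30 to 0.44) and E2F7 (-0.31 to 0.18). The threshold called 1538 probes, 62.5% of them higher, and 915 with normexp, 896 with the methods' t-test (2 after Benjamini-Hochberg adjustment) and 1126 to 1781 on leaving out 1 array. The share higher was 72.6% with no normalization, 40.2% with the rectangle kept and 52.2% without si-Control replicate 1. At an adjusted p under 0.05 limma called 49 probes, the smallest value being 0.0499. This count was 31 (75th percentile), 429 (normexp), 545 (dim probes left out), 74 (series table) and 60 (rectangle widened), and 0 with no normalization, the replicate block, the trend and robust prior, outliers kept, the rectangle kept and each array left out. The 3 G1/S targets called became 6 (75th percentile), 0 (no normalization), 5 (normexp), 6 (dim probes left out), 0 (replicate block), 1 (the methods' t-test) and 0 to 8 on leaving out 1 array. The 1 call among RB family and MuvB genes became 0 with no normalization and by the median over probes, and 0 to 2 on leaving out 1 array. The 2 calls among G1 cyclins and kinases became 1 by the methods' t-test, the series table and the widened rectangle, and 1 to 2 on leaving out 1 array. The 1 call among apoptosis genes became 0 with no normalization. The replicate block changed no other call among the members and lists, and apart from the masked spots the cause of these shifts was not tested. With 3 arrays per group, and 2 control arrays for 4 members, changes near or under 2-fold are poorly resolved.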
